A study of Caenorhabditis elegans with 3 samples.

Results

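Embryos of Caenorhabditis elegans that lack 8 rex sites on the X chromosome were compared with wild-type embryos by sequencing of poly(A) RNA. The comparison uses 2 of the 3 genotypes of the study. A locus was included when the table named a gene for it and its FPKM averaged 1 or more over the 3 genotypes, which held for 15628 of the 40669 deposited loci. FPKM counts fragments per kilobase, scaled to the size of the library, and is thus a level corrected for length. The kept loci comprised 2939 on X and 12689 on the autosomes.

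Wild type was strain N2. The 8rex deletion was strain TY5827, which carries on X the alleles rex-8(y737), rex-14(y738), rex-32(y572) and rex-33(y743), together with rex-35(y740), rex-43(y741), rex-47(y671) and rex-48(y742). Both were grown on HT115 bacteria with the empty vector pL4440. The third genotype, set beside them where it helps, was the DCC mutant, strain TY0810 with sdc-2(y93), whose HT115 bacteria carried sdc-2 RNAi instead. The labels give 5 replicates for wild type and 5 for the 8rex deletion, in each case 2 of mixed-stage embryos that were mostly before the comma stage and 3 enriched for older embryos near the 3-fold stage. The DCC mutant had 3 replicates, 2 of mixed stages and 1 of older embryos. The authors' deposited table gives 1 combined FPKM value per genotype and locus, so the values below carry no standard deviation, and the only replicate-based error behind a difference is the authors' own p and q. A whole embryo was measured, so more cells of a type and more RNA per cell cannot be told apart.

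In C. elegans, hermaphrodites have a pair of X chromosomes and males a single one. The dosage compensation complex (DCC), which is built around a condensin, binds both X chromosomes of hermaphrodites and lowers their transcription to match the male level. It is recruited at rex sites (recruitment elements on X) by the XX-specific protein SDC-2 and then spreads along the chromosome. Strong rex sites lie at the boundaries of topologically associating domains, stretches of chromosome whose DNA contacts itself more than its surroundings. The 8 deleted sites lie at such boundaries. The title of the study names X domain architecture, dosage compensation and lifespan as its subjects, and the expression data bear on whether X-linked and other genes differ in level without these sites.

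X-linked genes stood at nearly the same level in the 8rex deletion and in wild type. Measured as log2(FPKM + 1), a scale that shrinks the difference of low genes, the median difference of the 8rex deletion from wild type was -0.0016 over all X-linked loci and -0.0037 over all autosomal loci. X thus stood 0.0022 above the autosomes, a ratio of 1.0015. Among the 10837 loci made up of exactly 1 protein-coding gene, the median was -0.038 over 1782 X-linked loci and -0.010 over 9055 autosomal loci. X minus autosomes was then -0.027, a ratio of 0.981. Of these single-gene coding loci on X, 43.4% had a value above 0, against 48.0% on the autosomes.

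The DCC mutant, which shares the same wild-type values, gives the size of an X-wide difference on this scale, with a stage mix of its replicates that differs from wild type. Its X-linked single-gene coding loci had a median of 0.56 and stood 0.60 above its autosomal ones, a ratio of 1.51, and 87.8% of them lay above 0. In the 8rex deletion the interquartile range of these loci was -0.21 to 0.15 on X and -0.18 to 0.17 on the autosomes, which overlap almost wholly. The medians of the autosomes in the 8rex deletion ran from -0.022 on IV, through -0.012 on III, -0.0097 on V and -0.0051 on I, to -0.0047 on II. For these loci X was the lowest of the 6 chromosomes, and its interquartile range was 0.36 wide. Over loci of all types X was not the lowest, at -0.0016 against -0.0099 on IV.

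**Figure D1:**
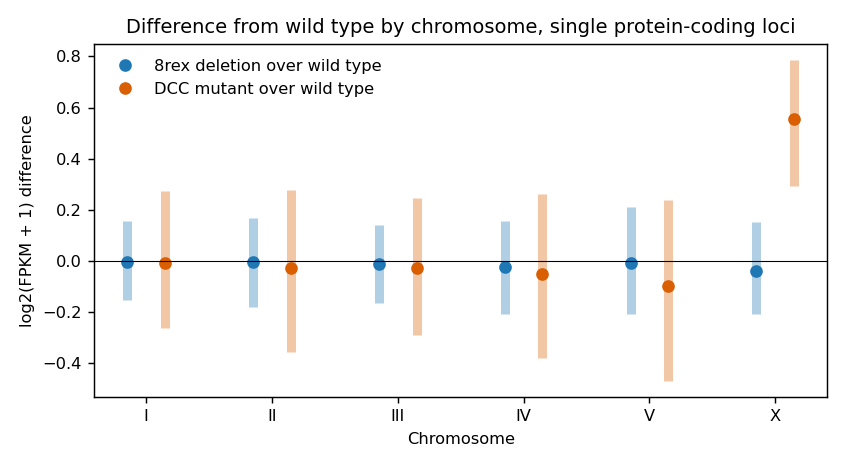
Difference from wild type on the log2(FPKM + 1) scale for single-gene coding loci of each chromosome, with the median as a point and the interquartile range as a bar, for the 8rex deletion (blue) and the DCC mutant (orange). The 8rex deletion medians lie between -0.038 and -0.0047 on all 6 chromosomes, while in the DCC mutant X stands at 0.56 and the autosomes between -0.097 and -0.0082.

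The same was examined along X, since the deleted sites are local. X was divided into windows of 1 Mb, each with at least 20 loci. Over the 18 windows, the median of single-gene coding loci ran from -0.0997 in the window that starts at 17 Mb to 0.033 in the window that starts at 16 Mb, and 16 of the 18 lay below 0. The 84 autosomal windows ran from -0.081 to 0.11, with 34 above and 50 below 0, so that 1 X window lay outside the autosomal range, by 0.02. With loci of every type, the X windows ran from -0.078 to 0.046 and the autosomal windows from -0.070 to 0.15. Of these X windows 10 lay below and 2 above 0, and of the autosomal ones 44 below and 30 above. The lowest X window, from 8 Mb, was again just outside the autosomal range. It was not the lowest X window of the single-gene coding loci. In the DCC mutant the 18 X windows all lay above 0, between 0.40 and 0.63. No window median of X in the 8rex deletion reached that range. The distance of genes from the deleted sites was not analysed here.

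**Figure D2:**
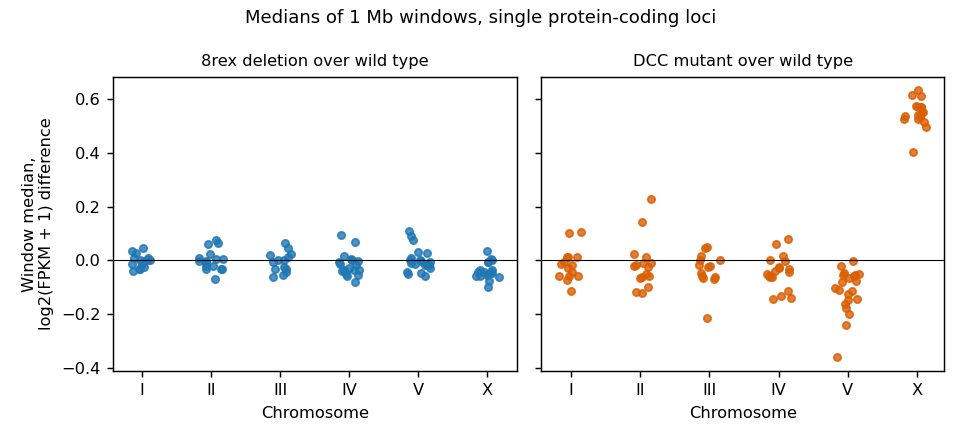
Medians of the log2(FPKM + 1) difference from wild type in 1 Mb windows, 1 point per window of single-gene coding loci, by chromosome, with a random sideways offset, for the 8rex deletion (left) and the DCC mutant (right). The 18 X windows of the 8rex deletion lie between -0.0997 and 0.033, within or next to the range of the autosomal windows, and those of the DCC mutant between 0.40 and 0.63.

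The width of the distribution depended on the level and type of a locus. Of the single-gene coding loci, 372 stood at least 2-fold higher in the 8rex deletion (3.43%) and 258 at least 2-fold lower (2.38%). The share past 2-fold in either direction was 6.23% on X and 5.73% on the autosomes. When these loci were ranked by mean FPKM and cut into 4 equal groups, the share past 2-fold was 14.3% in the lowest group (1.0 to 3.89 FPKM), 6.46% and 1.66% in the middle groups and 0.812% in the highest (above 40.3 FPKM). The interquartile range narrowed with it, from 0.75 to 0.46, 0.28 and 0.19. X minus autosomes was 0.020, -0.0099, -0.049 and -0.031 from the lowest group to the highest, so no group stood more than 0.05 from 0.

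Over loci of all types, 1462 stood at least 2-fold higher (9.36%) and 1099 at least 2-fold lower (7.03%). X had 24.6% of its loci past 2-fold and the autosomes 14.5%, a wider gap than that of the coding loci. Of the 2240 loci of a single ncRNA gene, 839 lay on X, and 68.6% of these ncRNA loci were past 2-fold. Of the ncRNA loci, 58.5% were listed at 0 in exactly 1 of the 2 genotypes. The corresponding share was 2.04% of single-gene coding loci, 122 of which were listed at 0 in wild type only and 99 in the 8rex deletion only. A listed 0 need not mean absence. The cyclophilin gene cyn-5 was listed at 0 FPKM in wild-type embryos, 1297 in the 8rex deletion and 1214 in DCC mutant embryos, and rpa-1, a replication protein gene, at 0, 249 and 131 FPKM. Both are widely used genes and were chosen here after their values were seen.

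Gene by gene, no kept locus passed the authors' test at a q of 0.05. In the authors' deposited table, 9378 of the kept loci had been tested, the smallest q was 0.0632 and the median p was 0.813. The smallest p there was 5e-05, at 6 loci alike, and whether the authors' test could give a smaller one is not stated. An unadjusted p under 0.05 stood at 43 loci (0.459%) in the authors' deposited table, of which 27 had the higher value in the 8rex deletion (0.288%) and 16 the lower (0.171%). On X these were 5 of 1466 tested loci (0.341%), and on the autosomes 38 of 7912 (0.480%), by the p of the authors' deposited table. Evenly spread p-values would put a share of about 0.05 under this threshold. The deposited p-values thus ran high, and a larger p here says little about small differences. Many of the 43 were composite loci. Several genes shared 20 of them (46.5%), against 1506 of all tested loci (16.1%). Of those 20, 17 include a non-coding gene, and how many of the 1506 do was not counted. A further 14 hold a single protein-coding gene, out of 7428 such loci tested, 9 with the higher and 5 with the lower value. Another 6 hold a single ncRNA gene, out of only 270 such loci tested. The FPKM of a shared locus covers all its genes, so the part of any 1 gene is not known.

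**Figure D3:**
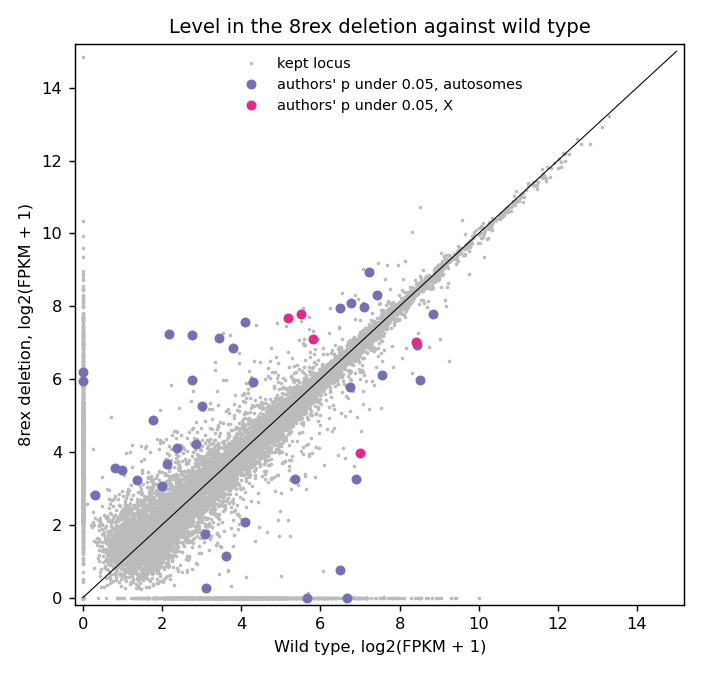
Level of each of the 15628 loci in the 8rex deletion against wild type, both as log2(FPKM + 1), with the line of equal level; larger points mark loci with a p under 0.05 in the authors' deposited table on the autosomes (purple, 38) and on X (pink, 5). The marked loci lie off the line on both sides, loci listed at 0 FPKM form the points along each axis, and the cloud narrows toward high levels.

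The 6 loci that share the smallest q included a pair on X. The first joins elt-2, the GATA transcription factor that maintains intestinal fate, with elt-4, a short GATA factor gene next to it (WBGene00001250 and WBGene00001252, X, ce11, 10475527 to 10483441). It stood at 35.3 FPKM in wild-type embryos, 202 in the 8rex deletion and 40.8 in DCC mutant embryos. The 8rex deletion was 5.72-fold higher than wild type (p = 5e-05 and q = 0.0632 per the authors' deposited table), and the DCC mutant lay close to wild type. Its neighbours were not higher alike. Of 6 single-gene coding loci around it, only vab-3, a Pax6 transcription factor gene, was well expressed, at 91.2 and 93.9 FPKM in wild type and the 8rex deletion. The other 5 were below 5 FPKM in both. Of these low loci, C39B10.3 and C39B10.4 had higher values in the 8rex deletion. C39B10.1 and C33D3.3, which has more than 1 locus, had lower ones. The long non-coding RNA gene linc-83 just beside the elt-2 locus stood at 2.81 and 5.88 FPKM. The small gene C33D3.6 inside the span of the elt-2 locus was listed at 0 and 11.7 FPKM. The coding gene C39B10.7, also inside the span, stood at 7.5 and 6.44 FPKM.

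Other GATA factor genes, which act with elt-2 in the endoderm or have their own role in the epidermis, were set beside it. The intestinal factor gene elt-7 stood at 16.7 FPKM in wild-type embryos and 15.5 in the 8rex deletion, end-1, which specifies endoderm, at 1.82 and 2.95 FPKM, and elt-1, which specifies epidermis, at 55.3 and 52.1 FPKM. Of 22 measured loci of intestinal marker genes other than elt-2 and elt-4, 14 lay above 0 and 8 below, with a median of 0.051. None of the 19 tested among them had a p under 0.05 in the authors' deposited table, against 0.459% of all tested loci. The brush border actin gene act-5 stood at 204 and 239 FPKM and the gut esterase gene ges-1 at 7.62 and 10.3 FPKM. The peptide transporter gene pept-1 has 2 loci in the table, at 27.3 and 32.2 FPKM and at 0.400 and 8.97 FPKM, with p = 0.5547 and p = 0.2395 in the authors' deposited table. The gene for the vitellogenin receptor rme-2 stood at 5.64 and 6.37 FPKM, and all 6 vit genes, which the adult intestine expresses, lay below the filter.

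The other X-linked locus at the smallest q joins the long non-coding RNA gene tts-1 with F09E10.14, also annotated as a non-coding RNA (WBGene00006650 and WBGene00219885, X, 1504131 to 1504998). The RNA tts-1 is known for its abundance in long-lived C. elegans mutants. The locus stood at 44.2 FPKM in wild-type embryos, 220 in the 8rex deletion and 29.3 in DCC mutant embryos. It was 4.97-fold higher in the 8rex deletion than in wild type (p = 5e-05 and q = 0.0632 per the authors' deposited table). The nearest flanking coding gene, F09E10.7, stood at 9.48 and 15.1 FPKM (p = 0.3647 per the authors' deposited table), a log2 difference of 0.62 in the same direction. Farther out, F09E10.6 stood at 77 FPKM in wild-type embryos and 74.4 in the 8rex deletion, and toca-1, a regulator of membrane traffic and actin, at 123 and 130 FPKM. Between the tts-1 locus and toca-1, the short non-coding loci F09E10.15 and F09E10.16 stood at 51.3 and 209 FPKM and at 0 and 214 FPKM. In the DCC mutant these were at 206 and 0 FPKM. For F09E10.15, the authors' deposited table gives a p of 0.2818.

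Of the 6, only the autosomal locus of sinh-1 and Y57A10A.44 had the lower value in the 8rex deletion (II, 12228305 to 12238242). The gene sinh-1 encodes the worm homologue of SIN1, a subunit of the TORC2 kinase complex. The locus stood at 118 FPKM in wild-type embryos, 8.52 in the 8rex deletion and 5.54 in DCC mutant embryos, so it was 13.9-fold lower in the 8rex deletion (p = 5e-05 per the authors' deposited table). Wild type stood apart from both mutants here, and both comparisons use the same wild-type value. The locus that holds rict-1, the gene for another TORC2 subunit, with col-86 stood at 12.1 and 11.8 FPKM in wild type and the 8rex deletion.

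The other 3 had higher values. Y54G11A.14, a single coding gene (II, 14318158 to 14321018), stood at 5.73 FPKM in wild-type embryos, 61.8 in the 8rex deletion and 17.2 in DCC mutant embryos, and was 10.8-fold higher in the 8rex deletion (p = 5e-05 per the authors' deposited table). The catalase gene cluster ctl-1, ctl-2 and ctl-3, a near neighbour chosen after its values were seen, stood at 69.8 and 67.2 FPKM (p = 0.88585 per the authors' deposited table). The locus of Y75B8A.13 and Y75B8A.52 (III, 12203756 to 12215696) read 15.9 FPKM in wild-type embryos, 189 in the 8rex deletion and 14.3 in DCC mutant embryos, 11.8-fold higher in the 8rex deletion than in wild type. The locus of siah-1, an E3 ubiquitin ligase gene, and Y37E11AR.9 (IV, 3744048 to 3747610) stood at 109, 273 and 88.2 FPKM, which is 2.50-fold higher. In the last pair of loci, as at elt-2 and elt-4, only the 8rex deletion stood apart.

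Around the 6 loci, the nearest 3 measured single-gene coding loci on each side gave 36 neighbours, 0.097 to 61.3 kb away. Their log2 differences ran from -1.45 to 2.1, and the smallest p among them in the authors' deposited table was 0.2799, at txdc-12.1 beside sinh-1. The extremes were low loci: K06A9.3 near tts-1 stood at 3.87 and 0.780 FPKM, and C39B10.4 near elt-2 at 0 and 3.28 FPKM. Of the better expressed neighbours, vab-2, an ephrin gene near siah-1, stood at 29.7 and 68.0 FPKM (p = 0.6741 per the authors' deposited table). The neighbour gex-4 of Y75B8A.13 stood at 38 FPKM in both.

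Besides elt-2 and tts-1, 3 X-linked loci had a p under 0.05 in the authors' deposited table. The locus of grk-1, a G-protein-coupled receptor kinase gene, with F19C6.12 (X, 9991248 to 9999208) read 55.4 FPKM in wild-type embryos, 136 in the 8rex deletion and 471 in DCC mutant embryos, and its p was 0.0143 in the authors' deposited table for the 8rex deletion. The ncRNA locus K02G10.14 and the mixed coding and non-coding locus H40L08.2/H40L08.6 had lower values. K02G10.14 stood at 127 FPKM in wild-type embryos and 14.6 in the 8rex deletion, and H40L08.2/H40L08.6 at 338 and 128 FPKM, with p = 0.03835 and p = 0.0032 in the authors' deposited table.

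Besides Y54G11A.14 and Y75B8A.13, the 10 highest folds among loci with a p under 0.05 included 8 loci with wild-type values below those of elt-2 and tts-1. C33A12.19 stood at 3.47 FPKM in wild-type embryos and 149 in the 8rex deletion, a 42.9-fold difference, and the locus of WBGene00195029 and Y37E11B.16 at 5.74 and 148 FPKM, a 25.9-fold difference. C50E3.7 stood at 0.239 and 6.01 FPKM, B0379.10 at 9.90 and 138 FPKM, C37A5.11 at 2.42 and 28.3 FPKM, C44B12.9 at 0.990 and 10.3 FPKM, and K04A8.16/K04A8.17 at 13 and 114.02 FPKM. The insulin-like peptide gene ins-29 stood at 0.741 and 10.9 FPKM. These 8 loci had p between 0.01655 and 0.0326 in the authors' deposited table and q of 0.999938. The DCC mutant values of C33A12.19 and Y37E11B.16 were 0.388 and 2.34 FPKM, below wild type, while those of C50E3.7, ins-29, B0379.10, C37A5.11, C44B12.9 and K04A8.16 lay between wild type and the 8rex deletion.

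On the lower side, ocr-1, a TRPV channel subunit gene of sensory neurons (V, 10764366 to 10768590), stood at 89.9 FPKM in wild-type embryos, 0.676 in the 8rex deletion and 255 in DCC mutant embryos (p = 0.01555 for the 8rex deletion per the authors' deposited table). The antisense RNA gene anr-1 stood at 7.69, 0.201 and 8.71 FPKM and the coding gene D2096.9 at 11.2, 1.19 and 9.41 FPKM, genotypes ordered as before. In these 3 the 8rex deletion alone was low. The locus of unc-49, a GABA receptor gene of the neuromuscular junction, with T21C12.12 stood at 366, 61.3 and 29.0 FPKM (p = 0.0014 for the 8rex deletion per the authors' deposited table). The locus of the GYF-domain gene gyf-1 with C18H9.12 stood at 345, 121 and 121 FPKM, and that of the Argonaute gene alg-5 with T23D8.11 and T23D8.12 at 39.8, 8.51 and 14.2 FPKM. K07H8.12 stood at 16, 3.21 and 3.58 FPKM. In these 4 wild type was above both mutants. The nuclear hormone receptor gene nhr-78 stood at 7.45 FPKM in wild-type embryos, 2.38 in the 8rex deletion and 5.29 in DCC mutant embryos, with p = 0.0165 for the 8rex deletion in the authors' deposited table.

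**Figure D4:**
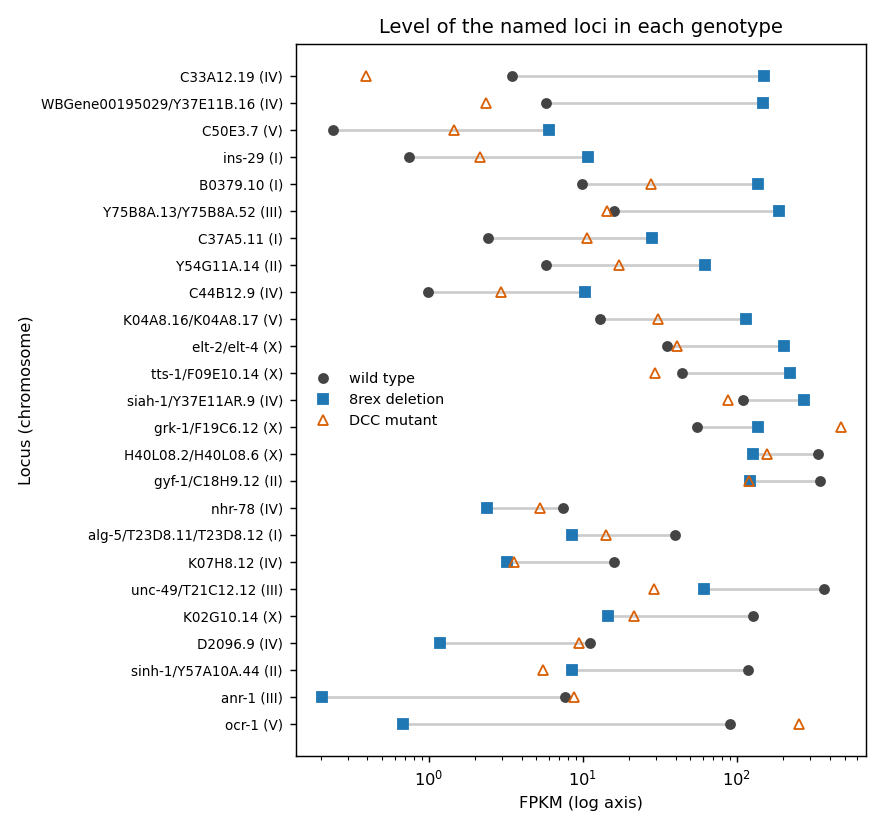
FPKM (log axis) of 25 loci with a p under 0.05 in the authors' deposited table, in wild type (black circles), the 8rex deletion (blue squares) and the DCC mutant (open orange triangles), ordered by the authors' log2 fold change of the 8rex deletion over wild type. At elt-2/elt-4 and siah-1 the DCC mutant lies near wild type, at sinh-1 and unc-49 it lies below the 8rex deletion, and at ocr-1 it lies above wild type.

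Among the 43, 4 non-coding loci were listed at 0 in 1 genotype. F10D11.7 and T22C8.10 were listed at 0 in wild type and stood at 60.2 and 72.4 FPKM in the 8rex deletion, while C01G6.13 and C48D5.4 stood at 102 and 49.2 FPKM in wild type and were listed at 0 in the 8rex deletion. All 4 were listed at 0 in the DCC mutant. Just inside the threshold stood bir-2, which encodes a protein with a BIR domain, at 4.20 and 16.3 FPKM (p = 0.04905 per the authors' deposited table), T26C12.2 (p = 0.04055), K02G10.14 and the locus that holds eif-4A3, an exon junction helicase gene (p = 0.03345). Just outside stood F41D9.12 (p = 0.0558 per the authors' deposited table), hpo-30 (p = 0.05905), irld-65/irld-66 (p = 0.05915) and acr-2/F38B6.10 (p = 0.06). At the edge of the filter on level, W05B10.6 at a mean of 1.0 FPKM was just kept and AH9.4 at 0.999 FPKM was not.

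The genes of the dosage compensation complex had values slightly below wild type, none of which passed the authors' test. The 10 genes fall in 11 loci, of which 7 hold no other gene, and these 7 all lay below 0 with a median of -0.095. The recruiting subunit gene sdc-2 stood at 18 FPKM in wild-type embryos and 16 in the 8rex deletion, and sdc-1, another sdc gene of the complex, at 24 and 22.4 FPKM. Of the condensin subunits, dpy-27, the SMC4 homologue of this complex, stood at 115.5 and 110.3 FPKM, mix-1 at 66.7 and 61.3 FPKM, dpy-28 at 29.1 and 28.7 FPKM, and dpy-26 at 13.7 and 8.64 FPKM in the locus of its own. The locus that dpy-26 shares with C25G4.3 and spe-44 stood at 74.5 and 72.8 FPKM. The H4K20 demethylase gene dpy-21 stood at 70.4 and 66.2 FPKM. Their smallest p in the authors' deposited table was 0.75175, and the 4 shared loci with dpy-26, dpy-30, sdc-3 and capg-1 had p between 0.8007 and 0.9358 there. The condensin and cohesin genes outside the complex had a median of -0.074 over 11 loci, 9 of them below 0, where all single-gene coding loci had a median of -0.014 and 52.5% below 0.

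Of 12 measured loci of sex determination genes, 6 lay above 0 and 6 below. The male-promoting gene her-1, which SDC-2 represses in hermaphrodites, stood at 48.5 FPKM in wild-type embryos, 6.92 in the 8rex deletion and 284 in DCC mutant embryos, and its p for the 8rex deletion was 0.35725 in the authors' deposited table. The male switch gene xol-1 stood at 0.978, 1.84 and 7.41 FPKM. The germline gene fog-1 stood at 10.6 and 4.70 FPKM in wild type and the 8rex deletion, and sea-2, an autosomal signal element, at 6.29 and 17.3 FPKM in its own locus and at 220 and 167 FPKM in the locus shared with K10G6.11. The X signal element gene sex-1 stood at 74.3 and 67.4 FPKM.

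Single-gene coding loci of the lifespan and stress lists had a median close to 0 in these embryos. Shared loci, such as those of tts-1, sinh-1 and elt-2 described above, are not among them. The insulin signalling list had 14 measured single-gene coding loci, and that of lifespan genes outside it 23. DAF-16 targets and antioxidants had 20, chaperones 44 and the unfolded protein response 11. Together, with some loci in more than 1 list, they hold 108, with a median of 0.0011, 54 above and 53 below 0. The only locus past 2-fold was the lower of the pept-1 loci, at 0.400 and 8.97 FPKM in wild type and the 8rex deletion. At least 1.5-fold higher stood 2 and at least 1.5-fold lower 2, against 7.8% and 6.43% of all single-gene coding loci. Those shares fall with level: among the 2709 loci of the highest group by level, 21 stood at least 1.5-fold higher and 28 lower. No set matched for level was compared. None of the 97 tested loci of these lists had a p under 0.05 in the authors' deposited table. Over all tested loci the share was 0.459%, so a set of this size need not hold any. The insulin receptor gene daf-2 stood at 45.6 FPKM in wild-type embryos and 49 in the 8rex deletion, and age-1, the PI3 kinase downstream of it, at 17.6 and 17.7 FPKM. The FOXO factor gene daf-16 stood at 56.1 and 60.2 FPKM, skn-1, the Nrf factor of the oxidative stress response, at 76.1 and 79.5 FPKM, and the heat shock factor gene hsf-1 at 44 and 49.7 FPKM.

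The smallest p of these lists in the authors' deposited table, 0.1601, was that of vhl-1 on X, a subunit of the ligase that degrades the hypoxia factor HIF-1. It stood at 19.8 FPKM in wild-type embryos, 10.8 in the 8rex deletion and 21.3 in DCC mutant embryos. The factor gene hif-1 itself stood at 173 and 178 FPKM and the prolyl hydroxylase gene egl-9 at 91.3 and 85.1 FPKM in wild type and the 8rex deletion. The ubiquinone synthesis gene clk-1 stood at 41.1 and 30.9 FPKM and the S6 kinase gene rsks-1 at 79.7 and 86.3 FPKM. Of the DAF-16 targets, the metallothionein gene mtl-1 stood at 10.4 and 6.56 FPKM and the small heat shock gene sip-1 at 335 and 417 FPKM (p = 0.4848 and 0.4309 per the authors' deposited table).

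Over all 41 gene lists, 38 had at least 5 measured single-gene coding loci, and 35 of these medians lay within 0.1 of 0. The exceptions were maternal and early embryonic genes at 0.16, insulin-like peptides at 0.15 and neuropeptides at -0.13. The insulin-like median was 0.00 with no filter on level and 0.029 at a mean of at least 5 FPKM, so it depended on low loci. In the authors' deposited table, 3 lists had a member with a p under 0.05, 1 each. These members were ins-29 of the insulin-like peptides, bir-2 of the cell death genes and nhr-78 of the nuclear hormone receptors. The 3 lists hold 19, 18 and 167 measured loci, some of them not tested. Over all tested loci the share under this p was 0.459%, so across 41 lists single members like these need not set a list apart.

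**Figure D5:**
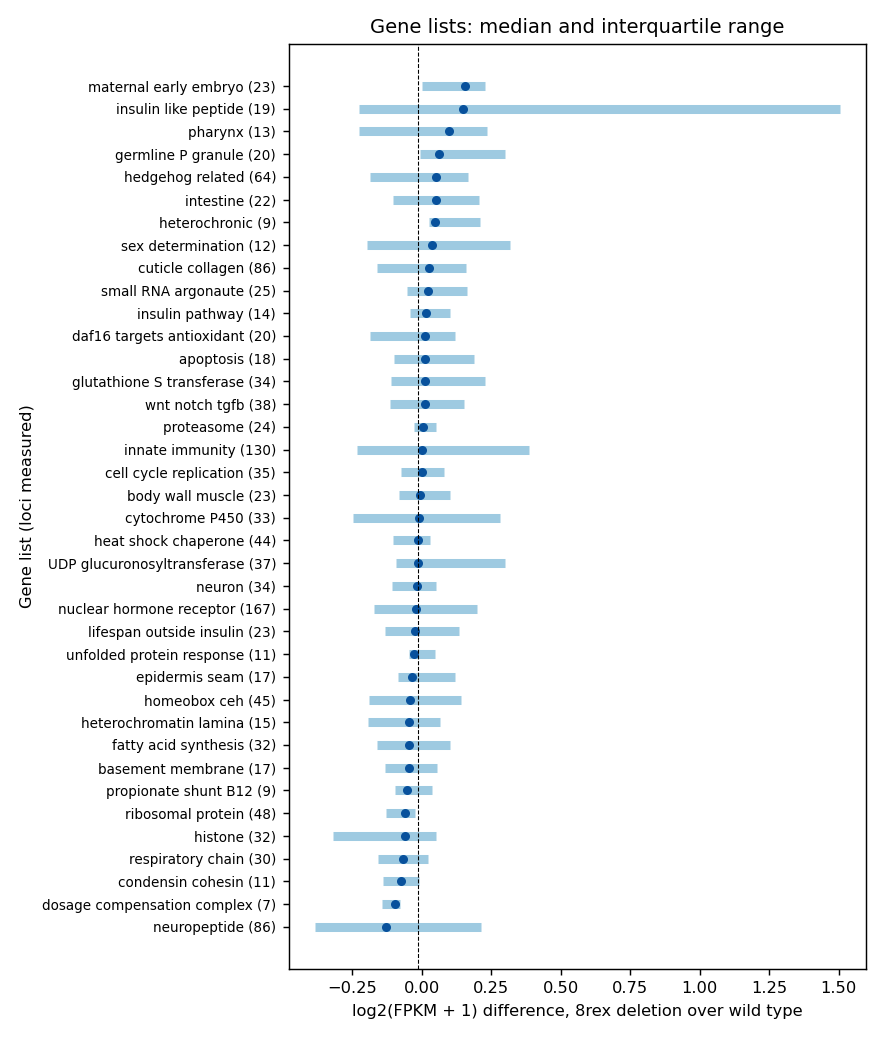
Median (point) and interquartile range (bar) of the log2(FPKM + 1) difference of the 8rex deletion from wild type for the 38 gene lists with at least 5 measured single-gene coding loci, whose number stands in brackets; the dashed line is the median of all 10837 such loci, -0.014. The medians run from -0.13 for neuropeptides to 0.16 for maternal genes, and the insulin-like peptides have the widest bar.

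Markers of stage and tissue were compared because the values combine embryos of different ages. Of 23 measured loci of maternal and early embryonic genes, 18 lay above 0 (78.3%), against 47.3% of all single-gene coding loci. The maternal RNA-binding protein gene mex-1 stood at 16.1 FPKM in wild-type embryos and 25.5 in the 8rex deletion, and pos-1, another such gene, at 93.6 and 108 FPKM. The summed level of the list was 710 FPKM in wild-type embryos, 773 in the 8rex deletion and 1275 in DCC mutant embryos, and its smallest p for the 8rex deletion was 0.25235 in the authors' deposited table. Germline genes, whose RNA the mother in part supplies, had a median of 0.063 over 20 loci with 15 above 0. The P granule gene pgl-1 stood at 23.6 and 29.3 FPKM and him-8, which pairs the X chromosomes in meiosis, at 52.6 and 96 FPKM.

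Cell cycle and replication genes, active in younger embryos, had a median of 0.0021 over 35 loci, and the cuticle collagens of late embryos 0.028 over 86 loci, with 45 above and 41 below 0. The summed collagen level was 19486 FPKM in wild-type embryos and 20348 in the 8rex deletion. The medians were -0.0048 for body wall muscle, -0.016 for neurons, -0.034 for epidermis and 0.10 for pharynx, over 23, 34, 17 and 13 loci. Sperm genes were largely unmeasured, with 52 of 56 loci below the filter. The part of embryo stage in any of the differences above was not tested.

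Among the larger families, the insulin-like peptides spread most: of 19 loci, 7 stood at least 1.5-fold higher and 3 at least 1.5-fold lower, where the shares over all single-gene coding loci were 7.8% and 6.43%. Of the 7, ins-12, ins-16, ins-22 and ins-25 were listed at 0 in wild type and stood at 3.09 to 5.80 FPKM in the 8rex deletion. Such loci passed the filter on level only through genotypes other than wild type. Another 19 loci of the family lay below the filter, so the share of 7 in 19 depends on it. The better expressed ins-34 stood at 90.2 and 100.1 FPKM and ins-6 at 7.70 and 16.1 FPKM. Of 86 neuropeptide loci, 34 lay above 0 and 52 below, with 10 at least 1.5-fold higher and 11 at least 1.5-fold lower. The X-linked genes flp-5 and nlp-7 stood at 9.17 and 19.1 FPKM and at 28.6 and 16 FPKM, with p = 0.19415 and p = 0.23265 in the authors' deposited table. Innate immunity genes had a median of 0.0034 over 130 loci, 16 and 12 of them past 1.5-fold higher and lower. The antimicrobial saposin-like gene spp-14 on X stood at 285 and 113.5 FPKM (p = 0.2747 per the authors' deposited table). Of 167 nuclear hormone receptor loci, 13 stood at least 1.5-fold higher and 7 at least 1.5-fold lower, the first near its share over all single-gene coding loci and the second below it.

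Several housekeeping families had medians slightly below 0. Of 48 ribosomal protein loci, 40 lay below 0 with a median of -0.059, and none was past 1.5-fold. The gene rps-28 stood at 2825 and 2397 FPKM in wild type and the 8rex deletion, with p = 0.44185 in the authors' deposited table, the smallest of the list. Of 30 respiratory chain loci, 20 lay below 0 with a median of -0.065, and of 32 histone loci 22 lay below 0 with a median of -0.060. Another 46 of the 80 histone loci were below the filter on level. The linker histone gene hil-2 stood at 1044 and 855 FPKM. The proteasome subunit genes had a median of 0.0041 over 24 loci with 13 above 0. The highest of the 4 groups of single-gene coding loci by level had a median of -0.032 over 2709 loci, with 59.4% below 0.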

How the data were processed

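Per the submitters' processing notes, cutadapt 1.2.1, TopHat2 2.1.1, Cufflinks 2.2.1 and genome build ce11 were used; their roles, the annotation and the use of strand are not stated in the labels or headers. The authors deposited FPKM per locus, 1 value per genotype with replicates already combined, and beside it a log2 fold change, a p-value and a q-value, per the file headers, which do not name the test. The deposited log2 fold change equalled the log2 ratio of FPKM within 4.93e-05 at loci above 0 FPKM in both genotypes. Depth per library is unknown. FPKM summed to 913501 in wild type and 932664 in the 8rex deletion.

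Linear models needed replicate values, so the stated alternative was followed: differences were described without a test of their own, and a p of 1 in the authors' table was taken as not tested. Loci with an identifier that averaged 1 FPKM or more were kept, and differences were taken with a pseudocount of 1. Rows without an identifier (242, 0.595%) were left out. Of the kept loci, 1673 (10.7%) hold several genes. Of 46148 identifiers, 45923 were found in Ensembl release 115, which gave gene types and 1-based coordinates. Symbols came from a separate list of gene names, and from Ensembl where that list had none.

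The members and gene lists were chosen with earlier results of these data known. Named loci were those at the smallest q, the 10 highest and 10 lowest folds at p under 0.05, above 0 FPKM in both genotypes and at least 5 FPKM in one, up to 6 each way on X by the same rule, up to 4 per list by p, the dosage compensation genes, and 4 on each side of p 0.05. Neighbours and other loci named beside these, including the further list members, were chosen after their values were seen. Other pseudocounts, filters, centring, window sizes and locus types were tried. Python 3.11.15, numpy 2.4.6, pandas 2.3.3 and matplotlib 3.10.9 were used.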

Additional observations from a re-analysis of the deposited data

Results flagged for a closer look

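The 242 rows without a gene identifier, which entered no comparison, had a median log2(FPKM + 1) difference of 0.58 between the 8rex deletion and wild type, against -0.0035 over the kept loci. Of these rows 186 lay above 0 (76.9%), against 47.6% of the kept loci. At least 2-fold higher stood 71 (29.3%) and at least 2-fold lower 10 (4.13%), against 9.36% and 7.03% of the kept loci. Their median level was 7.32 FPKM in wild-type embryos, 11.1 in the 8rex deletion and 2.75 in DCC mutant embryos, and the median difference was 0.33 for the 69 rows on X and 0.67 for the autosomal rows. In the authors' deposited table, 5 of the 209 tested rows had a p under 0.05, all with the higher value in the 8rex deletion. Of the 9378 tested kept loci, 43 (0.459%) had such a p, 27 of them with the higher value (0.288%). What these rows hold is not named in the table.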

How the results depend on the processing

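No paired analysis was possible because the table gives 1 combined value per genotype, and for the same reason no replicate could be left out. X minus autosomes over loci of all types lay between -0.024 and 0.0022 under its 6 alternatives of pseudocount, filter and genes per locus, and was -0.027 over single-gene coding loci. Counts past 2-fold depended on low loci: 1462 higher and 1099 lower became 802 and 579 when loci at 0 FPKM in either genotype were dropped and no pseudocount was added, and 764 and 635 at a mean of at least 5 FPKM. Among loci of exactly 1 gene, 14 of the 27 higher and 9 of the 16 lower loci at p under 0.05 in the authors' deposited table were left. The other 20 hold several genes, as do 46.5% of the loci under this p and 16.1% of all tested loci. Under alternatives, 185 list medians moved by less than 0.1 and 5 by more. The latter were sex determination (-0.076 at 5 FPKM, -0.071 with shared loci), cytochrome P450 (-0.13 at 5 FPKM) and insulin-like peptides (0.00 with no filter, 0.029 at 5 FPKM). Other pseudocounts and centring, added after the data were seen, cannot turn the direction of the loci at p under 0.05. Centring on the autosomal median takes -0.0037 from each difference.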
